A study of Mus musculus with 2 samples.

Results

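The genes described here encode the enzymes that write and erase histone acetylation, histone chaperones, most of them for H3 with H4, and readers of the BET family. They comprise 36 genes, chosen by name, of 19720 genes with reads in the deposited table, and each of the 36 was found there by its Ensembl identifier. They fall into 9 acetyltransferases, 11 zinc-dependent deacetylases, 7 sirtuins, 7 chaperones and 2 BET readers. Total RNA of embryonic mouse forebrain was sequenced for H2A.Z conditional knockout mice (genotype label H2AZcKO, called cKO below) and for mice with floxed alleles (H2AZfl/fl, called fl/fl), all on a C57BL/6 background. H2A.Z is a histone that takes the place of canonical H2A in a subset of nucleosomes. The fl/fl library is titled WT, although its genotype label gives floxed alleles. The sample titles give embryonic day 16 and a characteristics field gives day 12, so the age is uncertain. The sources used here do not give the Cre driver, the deleted exons or any pooling of animals. The tissue is labelled telencephalic, and the protocol names dissected cerebral cortex. Although triplicates are mentioned in the design text, the table has a single count column for each genotype, so no difference below has a replicate check and none was tested.

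Acetylation of lysines on the histone tails, and of lysine 56 in the globular core of H3, loosens the contact of histones with DNA and creates docking sites for bromodomain proteins. Acetyltransferases transfer the acetyl group from acetyl-CoA, zinc-dependent deacetylases remove it by hydrolysis, and sirtuins remove it with NAD as a cosubstrate. Newly made H3 and H4 are acetylated while bound to chaperones, which hand them to CAF-1 behind the replication fork or to HIRA outside S phase. The title of the series links H2A.Z to H3K56 acetylation in astrocytes, which makes the enzymes of this mark the members closest to its question.

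The libraries held 9028523 reads in genes for cKO and 8474545 for fl/fl, and values were compared after scaling by the trimmed mean of M values (TMM). The targeted gene, H2afz, had 535 reads in cKO and 1152 in fl/fl, a log2 ratio of -1.16 (95% interval -1.31 to -1.01), and H2afv, which encodes the other H2A.Z protein, had 1095 reads in cKO and 1009 in fl/fl. Each of 10 genes that define the telencephalon was present in both libraries, among them Emx1 with 645 reads in cKO and 588 in fl/fl. Of these 10, 3 were higher and 5 lower in cKO beyond counting error, with a median log2 ratio of -0.07. The marker lists of other tissues and regions differed between the libraries. Of 15 measured choroid plexus markers 13 were at least 1.5-fold lower in cKO, with 889 summed reads in cKO and 8787 in fl/fl, and Calml4 was at 0 in cKO. Of 18 meningeal and fibroblast markers 14 were lower by that margin, with 1760 summed reads in cKO and 3819 in fl/fl and Slc22a6 at 0 in cKO. Zic1, which was higher in cKO, supplied 1239 of these reads in cKO and 1004 in fl/fl, and the median log2 ratio of the 18 was -3.62. Of 11 thalamic, midbrain and hindbrain markers 9 were at least 1.5-fold higher (2711 summed reads in cKO and 1066 in fl/fl, with Shox2 at 0 in fl/fl), as were 11 of 19 ventral forebrain markers (11411 and 7166 summed reads in cKO and fl/fl). Of 20 pan-neuronal genes 17 were higher and 0 lower beyond counting error, with a median log2 ratio of 0.17, and of 14 radial glia genes 2 were higher and 4 lower, with a median of -0.09. Among all measured genes 12.5% were higher and 9.30% lower beyond counting error, and among those with at least 400 reads 18.1% and 8.55%. Of 15 endothelial markers 0 were higher and 6 lower (median -0.31, with Slco1a4 at 0 reads in cKO), of 13 microglial and macrophage markers 0 were higher and 3 lower (median -0.37), and of 8 erythroid markers 0 were higher and 5 lower (median -0.28). The part of these differences in the ratios of the acetylation genes was not tested, and in such bulk tissue fewer cells of a type and less RNA per cell cannot be told apart.

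Transcripts of the acetylation machinery were close to level between the libraries. All 36 genes had more reads than the minimum of 20 in both libraries together, between 164 for Sirt3 and 7057 for Hdac2. Of them, 1 was at least 1.5-fold lower in cKO and 0 were at least 1.5-fold higher. The one at least 1.5-fold lower was Sirt4, a mitochondrial sirtuin. Among the 14366 measured genes, 5.43% were lower and 3.52% were higher by that margin, and among the 11400 with at least 100 reads, as all 36 have, 1.75% and 1.45%. At a ratio of at least 5 to 4, 5 of the 36 (13.9%) were lower and 0 were higher, against 12.2% lower and 8.67% higher among measured genes and 6.47% lower and 5.18% higher among those with at least 100 reads. The median log2 ratio of the 36 was -0.04, against 0.0018 for all measured genes. The intervals given with ratios are 95% limits by the exact Clopper-Pearson method, computed from how a gene's reads divide between the libraries. They account for counting error only and not for variation between animals.

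By that measure of counting error, 6 genes were lower in cKO and 5 were higher, and for 25 the interval included a ratio of 1. The share lower was 16.7%, against 9.30% of measured genes and 9.45% of those with at least 100 reads. The share higher was 13.9%, against 12.5% and 14.6%. The share higher was thus near that of the whole table and the share lower was above it, and no test of either was made. Scaled by library totals, Brd2 and Ep300 came within counting error and Hdac6 and Sirt5 passed it, so that 3 genes were higher and 8 lower. In the same scaling 9 of the 36 genes were above 0, against 14 with TMM, as the ratios of Crebbp, Hdac7, Sirt2, Chaf1b and Brd3 turned negative. The 6 lower genes were all deacetylases (Hdac8, Hdac10, Hdac11, Sirt4, Sirt6 and Sirt7), and the 5 higher ones were Ep300, Kat6a, Hdac2, Nap1l1 and Brd2. The sizes differed: the lower genes had log2 ratios of -0.66 to -0.30 and the higher ones of 0.09 to 0.13.

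**Figure D1:**
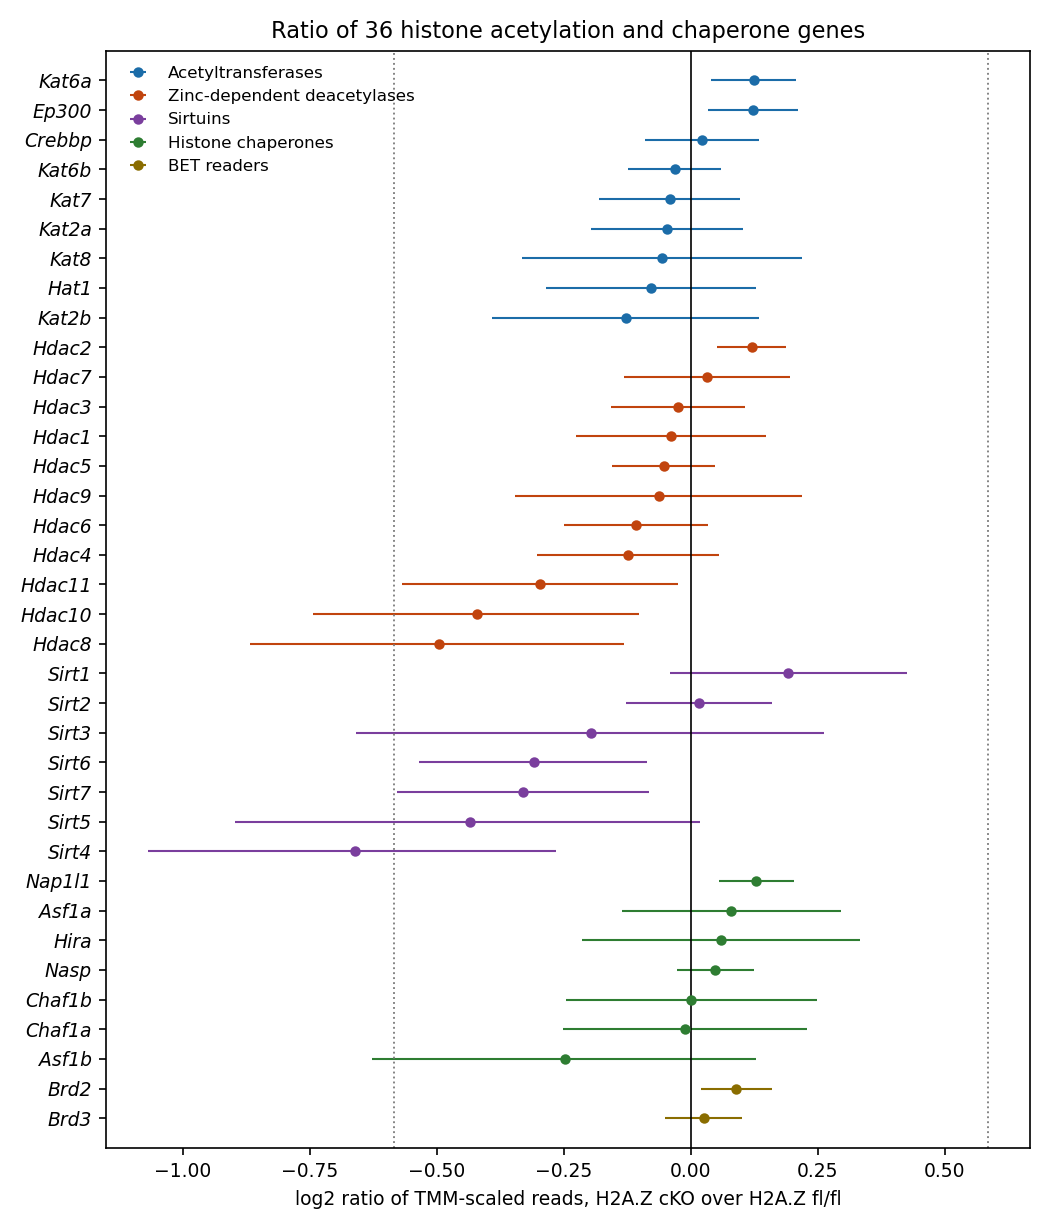
Log2 ratio of TMM-scaled reads in H2A.Z cKO over H2A.Z fl/fl for the 36 genes, grouped and coloured by class; points are single comparisons of 1 library each, lines are exact 95% intervals for counting error, and dotted lines mark a ratio of 1.5 either way. Sirt4, at -0.66, is the single gene past a dotted line.

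Among the acetyltransferases, the paralogs of the p300 and CBP family were the deepest together with Kat6a and Kat6b. Ep300, which encodes p300, a transcriptional coactivator that acetylates H3 at lysines 18, 27 and 56, had 2199 reads in cKO and 1942 in fl/fl, a log2 ratio of 0.12 (0.03 to 0.21). Crebbp, which encodes its paralog CBP, had 1335 reads in cKO and 1264 in fl/fl, a ratio of 0.02 (-0.09 to 0.13). Ep300 was slightly higher in cKO, but came within counting error when libraries were scaled by their totals. For Crebbp the interval included level, and the sign turned in that scaling. Ep300 lies on chromosome 15 from 81585351 to 81652077 on the plus strand in GRCm38 coordinates, and Crebbp on chromosome 16 from 4081328 to 4213997 on the minus strand.

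Kat6a, which encodes MOZ, a MYST-family enzyme of H3 needed for blood and neural stem cells, had 2499 reads in cKO and 2205 in fl/fl (log2 ratio 0.12, 0.04 to 0.21). Its paralog Kat6b, which encodes MORF, had 1945 reads in cKO and 1912 in fl/fl (-0.03, -0.12 to 0.06). Kat7, which encodes HBO1, an enzyme tied to replication origins, had 857 reads in cKO and 848 in fl/fl, and Kat8, which encodes the H4 lysine 16 enzyme MOF, had 222 reads in each library. Their log2 ratios of -0.04 and -0.06 were within counting error. Of the 4 MYST genes, only Kat6a was beyond it.

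Kat2a and Kat2b encode GCN5 and PCAF, the catalytic subunits of the SAGA and ATAC coactivator complexes. Kat2a had 733 reads in cKO and 728 in fl/fl, a log2 ratio of -0.05 (-0.20 to 0.10). Kat2b had 235 reads in cKO and 247 in fl/fl, a ratio of -0.13 (-0.39 to 0.14), and a processed pseudogene shares 53.3% of its transcript at over 95% identity, so its count is less certain. Hat1, the type B enzyme that acetylates new H4 in the cytoplasm, had 384 reads in cKO and 390 in fl/fl (-0.08, -0.29 to 0.13). Over the 9 acetyltransferases the median was -0.04, with 2 higher and 0 lower beyond counting error. The ratio of their summed reads was 0.04, of opposite sign, because the deep genes Ep300 and Kat6a weigh most in a sum.

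Class I deacetylases, the nuclear enzymes of the Sin3, NuRD, CoREST and NCoR corepressors, were led by Hdac2. Hdac2 had 3744 reads in cKO and 3313 in fl/fl, a log2 ratio of 0.12 (0.05 to 0.19). Its partner Hdac1 had 475 reads in cKO and 469 in fl/fl (-0.04, -0.23 to 0.15), and a processed pseudogene, Gm10093, matches 70.9% of its transcript but held 1 read in each library. Hdac3, the enzyme of the NCoR complex, had 954 reads in cKO and 933 in fl/fl (-0.02, -0.16 to 0.11). Hdac8, an X-linked deacetylase of the cohesin subunit SMC3, had 109 reads in cKO and 148 in fl/fl, 1.41-fold lower (log2 ratio -0.50, -0.87 to -0.13). Thus of the class I genes 1 was higher and 1 lower beyond counting error, and the class as a whole had a median of -0.03. The 493 measured X-linked genes had a median of 0.03.

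Class IIa enzymes shuttle between nucleus and cytoplasm under the control of kinases and 14-3-3 proteins, and all 4 were within counting error. Hdac5 had 1583 reads in cKO and 1579 in fl/fl, Hdac7 634 in cKO and 596 in fl/fl, Hdac4 501 in cKO and 525 in fl/fl, and Hdac9 209 in cKO and 210 in fl/fl. Their log2 ratios ran from -0.12 for Hdac4 to 0.03 for Hdac7. In GENCODE M21 a long noncoding RNA on the opposite strand overlaps 22.4% of the exons of Hdac4. The sources used here do not say whether the authors counted by strand.

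The remaining zinc-dependent enzymes had ratios below 0. Hdac6, the X-linked cytoplasmic deacetylase of tubulin, had 798 reads in cKO and 827 in fl/fl (log2 ratio -0.11, -0.25 to 0.03). Hdac10, its class IIb relative and a polyamine deacetylase, had 146 reads in cKO and 188 in fl/fl, 1.34-fold lower (-0.42, -0.74 to -0.10). Hdac11, the single class IV gene, whose product removes long fatty acyl groups, had 210 reads in cKO and 248 in fl/fl, 1.23-fold lower (-0.30, -0.57 to -0.03). Hdac10 lies on chromosome 15 from 89123307 to 89128700 and Hdac11 on chromosome 6 from 91156665 to 91174692. For Hdac10 and Hdac11 the interval excluded level, and for Hdac11 its upper end was close to it.

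Hdac2 dominated the zinc-dependent family in both libraries. Per kilobase of exon, its TMM-scaled level was 93.8 CPM in cKO and 86.3 in fl/fl, the highest of all 36 genes. That was 46.8% of the summed per-length level of the 11 genes in cKO and 43.2% in fl/fl. Hdac3 followed with 13.2% in cKO and 13.4% in fl/fl and Hdac5 with 10.1% in cKO and 10.5% in fl/fl. Hdac8, Hdac10 and Hdac11, the genes lower in cKO, contributed 1.26%, 2.42% and 3.05% in cKO, against 1.78%, 3.24% and 3.76% in fl/fl. Hdac9 and Hdac4, with 1.60 and 3.55 CPM per kilobase in cKO and 1.67 and 3.87 in fl/fl, were also low per length and were within counting error, with more reads than Hdac8 and Hdac10.

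**Figure D2:**
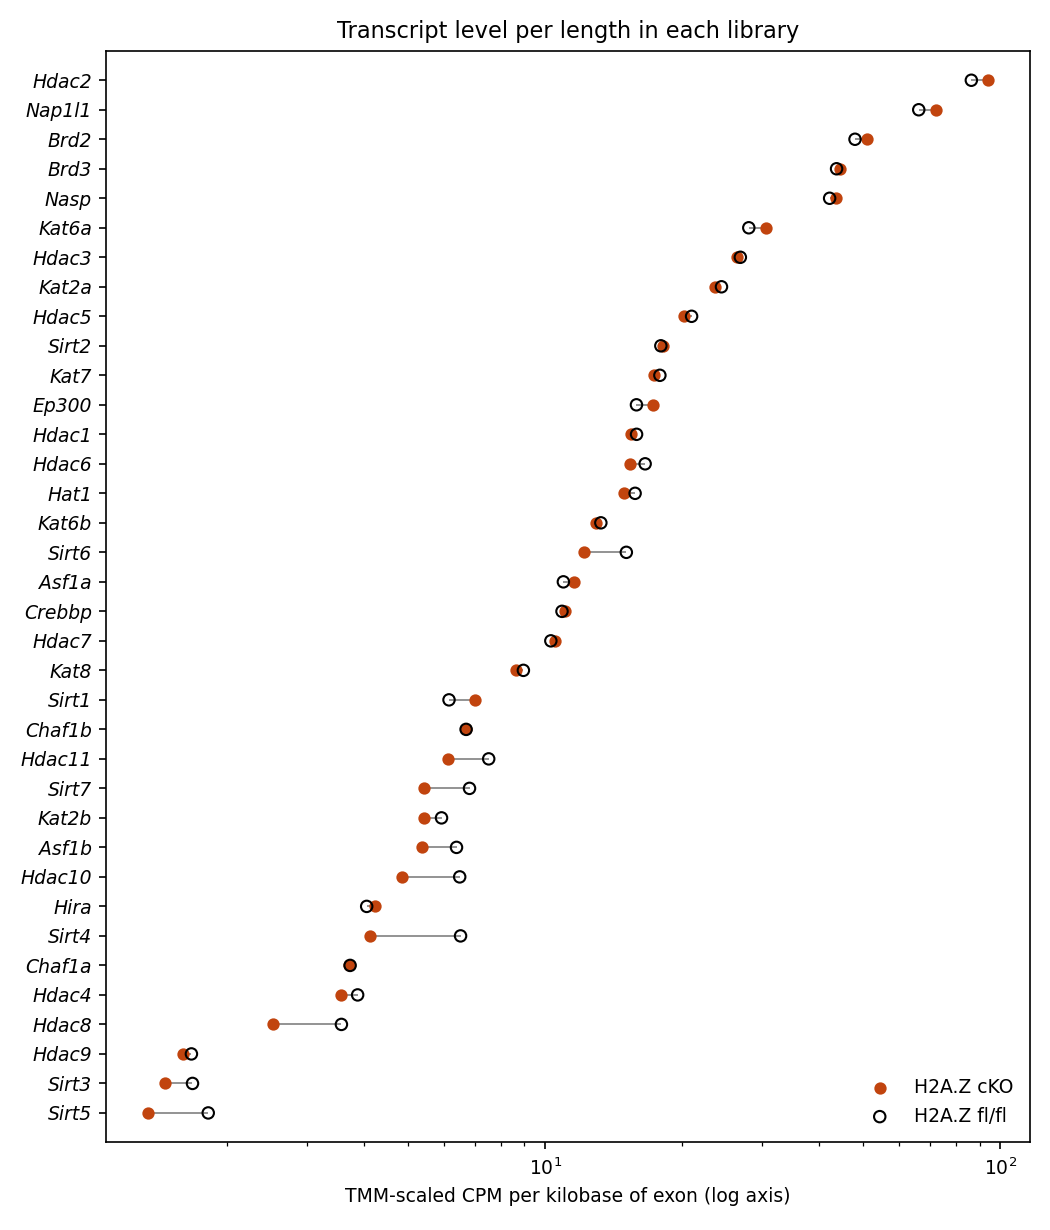
TMM-scaled CPM per kilobase of exon (log axis) for each of the 36 genes, ordered by level in H2A.Z cKO; filled points are H2A.Z cKO, open circles H2A.Z fl/fl, 1 library each. Hdac2 is highest at 93.8 in cKO and 86.3 in fl/fl, and Sirt5, Sirt3 and Hdac9 lie below 2 in both.

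The sirtuins had the lowest class median, -0.31, and 3 of the 7 were lower beyond counting error, of 6 such genes among the 36. Of measured genes 9.30% were lower in this way, and of those with at least 100 reads 9.45%. The sirtuins were also shallow, with a median of 550 reads against 859 over the 36 genes. The ratio of the summed sirtuin reads was -0.12, since Sirt2, with the most reads of the family, was near level. Sirt6, a nuclear deacetylase of H3 lysines 9 and 56, had 302 reads in cKO and 360 in fl/fl, 1.24-fold lower (log2 ratio -0.31, -0.54 to -0.09). Sirt7, the nucleolar deacetylase of H3 lysine 18, had 249 reads in cKO and 301 in fl/fl, 1.26-fold lower (-0.33, -0.58 to -0.08). Sirt4, a mitochondrial enzyme that restrains glutamate dehydrogenase, had 88 reads in cKO and 134 in fl/fl, 1.58-fold lower (-0.66, -1.07 to -0.26). Of the measured genes of all depths, 4.53% had a lower ratio than Sirt4, 11.8% a lower one than Sirt7 and 12.7% a lower one than Sirt6. Shallow genes spread more widely. In bins of like depth, with medians of 221, 555 and 666 reads, the 5th percentile was -0.57, -0.29 and -0.28. Sirt4, Sirt7 and Sirt6, in that order, lay below these values.

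The other sirtuins were within counting error. Sirt1, the best-studied family member, which deacetylates p53 and histones in the nucleus, had 334 reads in cKO and 281 in fl/fl, and its log2 ratio of 0.19 (-0.04 to 0.43) was the highest of all 36 genes. Sirt2, a mostly cytoplasmic enzyme abundant in glia, had 815 reads in cKO and 775 in fl/fl (0.02, -0.13 to 0.16). Mitochondrial Sirt3, the main deacetylase of that compartment, had 78 reads in cKO and 86 in fl/fl (-0.20, -0.66 to 0.26). Sirt5, a mitochondrial desuccinylase, had 73 reads in cKO and 95 in fl/fl (-0.43, -0.90 to 0.02), and stretches of its transcript match 9 other genes at over 95% identity. With fewer than 200 reads each in both libraries together, a difference of the size seen for Sirt6 was not detectable at this depth for Sirt3 and Sirt5. The 3 mitochondrial sirtuins were all below 0, with a median of -0.43, and the 4 nuclear or cytosolic ones were split, Sirt1 and Sirt2 above 0 and Sirt6 and Sirt7 below.

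Stretches just upstream of RefSeq starts are shown for Hdac2, the highest of the 36 genes per length, and for the CAF-1 genes Chaf1a and Chaf1b, described below, as genes near level. Hdac2 is the single gene with a window, among the 11 beyond counting error, whose window holds no base that GENCODE M21 gives as exon. Each is 250 bases long, read from RefSeq on GRCm38.p6 in the direction of transcription, and capitals mark matches to any motif searched.
Hdac2, chr10:36974294-36974543, plus strand: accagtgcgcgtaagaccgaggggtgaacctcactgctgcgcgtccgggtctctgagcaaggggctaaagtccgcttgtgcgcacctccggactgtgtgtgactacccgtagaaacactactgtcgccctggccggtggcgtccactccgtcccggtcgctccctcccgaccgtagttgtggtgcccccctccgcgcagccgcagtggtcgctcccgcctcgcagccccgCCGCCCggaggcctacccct
Chaf1a, chr17:56040166-56040415, plus strand: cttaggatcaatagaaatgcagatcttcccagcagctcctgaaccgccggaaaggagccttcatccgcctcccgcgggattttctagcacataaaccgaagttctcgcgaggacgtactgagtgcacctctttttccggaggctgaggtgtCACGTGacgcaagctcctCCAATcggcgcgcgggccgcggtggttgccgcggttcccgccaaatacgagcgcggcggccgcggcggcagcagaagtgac
Chaf1b, chr16:93883651-93883900, plus strand: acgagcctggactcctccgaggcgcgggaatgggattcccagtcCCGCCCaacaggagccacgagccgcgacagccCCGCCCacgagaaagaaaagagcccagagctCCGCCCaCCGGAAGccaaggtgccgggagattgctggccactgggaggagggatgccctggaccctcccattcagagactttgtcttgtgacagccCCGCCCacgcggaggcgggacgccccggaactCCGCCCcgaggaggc

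The motifs searched, on both strands, were the GC box GGGCGG, the CCAAT box, the ETS core CCGGAAG, the cyclic AMP response element TGACGTCA, the NRF1 core GCATGCGC, the TATA box TATAAA, the E-box CACGTG and the E2F forms TTTGGCGC and TTTCCCGC. Hdac2 held 1 GC box, Chaf1a 1 CCAAT box and 1 E-box, and Chaf1b 5 GC boxes and 1 ETS core. Of the 32 windows found for the 36 genes, 21 hold bases that GENCODE M21 gives as exon of any gene, the windows of Sirt4, Sirt6, Sirt7, Ep300 and Asf1a among them. The windows of Sirt4, Sirt6, Sirt7 and Ep300 lie wholly or mostly inside the gene's own deposited span, so a RefSeq start is not always the first one. Those of Sirt3 and Hira hold exon bases but lie outside the gene's own span. In these windows Sirt6 and Sirt7 each held 1 ETS core and the NRF1 core, which in Sirt6 overlaps itself on both strands, and Sirt4 held neither of these but 1 E2F form. An ETS core stood in 7.07% and an NRF1 core in 2.31% of 27025 upstream windows, and in 7 and 3 of the 32 windows found for these 36 genes. The Brd2 window also holds both motifs, and Brd2 was higher in cKO. No window is shown or counted for Kat6a, Hdac1, Hdac3 and Hdac10. GC boxes were in 19 of the 32 windows (59.4%, against 33.0% of all windows), including those of Ep300 and Asf1a, and the median GC content of the 32 was 61.8%, against 52.0%. CCAAT stood in 16 of the 32 (against 34.5% of all windows), the E-box in 3 (6.04%), the TATA box in 2 (13.0%), TTTCCCGC in 1 (0.929%), and TGACGTCA (1.6%) and TTTGGCGC (0.437%) in 0. These matches describe letters and not bound sites. The 27025 windows were not limited to genes with reads in these libraries, whereas all 36 genes had reads, so the 2 sets are unlike. The windows of the 3 lower sirtuins share no motif of this search.

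Among the chaperones, Nap1l1 was the single gene beyond counting error. Nap1l1, a nucleosome assembly protein abundant in neural progenitors, had 3223 reads in cKO and 2834 in fl/fl, a log2 ratio of 0.13 (0.06 to 0.20). A processed pseudogene, Gm4204, matches 28.2% of its transcript and held 3 reads in cKO and 4 in fl/fl. Nasp, which keeps a soluble reserve of H3 and H4, had 2922 reads in cKO and 2718 in fl/fl (0.05, -0.03 to 0.12). Per kilobase, Nap1l1 and Nasp stood at 72.4 and 43.6 CPM in cKO, against 66.2 and 42.1 in fl/fl, and together made up most of the summed level of the class.

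ASF1 proteins hand H3 with H4 to both assembly routes and are needed for acetylation of H3 lysine 56 in yeast and human cells. Asf1a had 376 reads in cKO and 342 in fl/fl (log2 ratio 0.08, -0.13 to 0.30). Its proliferation-linked paralog Asf1b had 112 reads in cKO and 128 in fl/fl (-0.25, -0.63 to 0.13). The paralogs differed in sign, and both intervals included level. Exons of Mcm9 on the opposite strand overlap 48.0% of those of Asf1a, so reads of the overlap cannot be assigned with certainty. Mcm9 had 140 reads in cKO and 99 in fl/fl.

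The CAF-1 and HIRA genes were level. Chaf1a, the large subunit of the replication-coupled assembly factor CAF-1, had 292 reads in cKO and 283 in fl/fl (log2 ratio -0.01, -0.25 to 0.23). Chaf1b, its middle subunit, had 280 reads in cKO and 269 in fl/fl (0.0012, -0.25 to 0.25). Hira, which deposits the variant H3.3 outside S phase, had 234 reads in cKO and 216 in fl/fl (0.06, -0.21 to 0.33). Ubxn6 on the opposite strand overlaps 52.5% of the exons of Chaf1a, and the read-through gene model Gm28539 overlaps 44.7% of those of Hira. The chaperone class had a median of 0.05, with 1 of 7 higher and 0 lower beyond counting error. On a list of 23 S phase genes, beside which the replication-coupled chaperones can be read, the median was 0.0057, with Fen1 higher and Rpa2 and Rrm2 lower beyond counting error.

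The BET readers bind acetylated H4 through paired bromodomains and recruit transcription elongation factors. Brd2 had 3561 reads in cKO and 3217 in fl/fl, a log2 ratio of 0.09 (0.02 to 0.16), and Brd3 had 2908 reads in cKO and 2747 in fl/fl, a ratio of 0.03 (-0.05 to 0.10). Brd2 was beyond counting error by a narrow margin. Brd2 was one of the higher genes lost when libraries were scaled by their totals.

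The enzymes of H3K56 acetylation had the following log2 ratios. Among the acetyltransferases and the ASF1 chaperones, Ep300 was at 0.12, Crebbp at 0.02, Kat2a at -0.05, Asf1a at 0.08 and Asf1b at -0.25. Of the deacetylases known for this mark, Sirt6 was at -0.31, Sirt1 at 0.19, Sirt2 at 0.02, Sirt3 at -0.20, Hdac1 at -0.04 and Hdac2 at 0.12. Ep300 and Hdac2 were higher and Sirt6 lower beyond counting error, and the intervals of the others included level. Scaled by library totals, the interval of Ep300 included level as well (0.09, -0.00076 to 0.18). Per kilobase, Sirt6 stood at 12.2 CPM in cKO and 15.1 in fl/fl, and Sirt1 at 7.02 in cKO and 6.15 in fl/fl. Sirt2 stood above both, at 18.1 in cKO and 17.9 in fl/fl. These are transcript levels, and neither the mark nor the proteins were measured in this series.

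The ratio followed read depth within the machinery. Across the 36 genes, Spearman's rho between the log2 ratio and the summed reads was 0.70, and across 14321 measured genes it was 0.18; the genes share both libraries and are not independent. The 5 higher genes had 4141 to 7057 reads and the 6 lower ones 222 to 662. All 6 genes with fewer than 400 reads (Hdac8, Hdac10, Sirt3, Sirt4, Sirt5 and Asf1b) were below 0, with a median of -0.43, and 3 of them were lower beyond counting error. The 3434 genes of the whole table with at least 100 and fewer than 400 reads had a median of -0.06, and 11.5% of them were lower and 6.73% higher beyond counting error. The other 30 had a median of -0.02, against 0.02 for the 7966 genes with at least 400 reads, and 3 of them were lower and 5 higher, against 8.55% and 18.1%. Deep genes have narrow intervals, so a small shift can pass the interval there and not in a shallow gene. GC content moved less with the ratio, with a rho of -0.26 over the 36 and -0.04 over all.

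**Figure D3:**
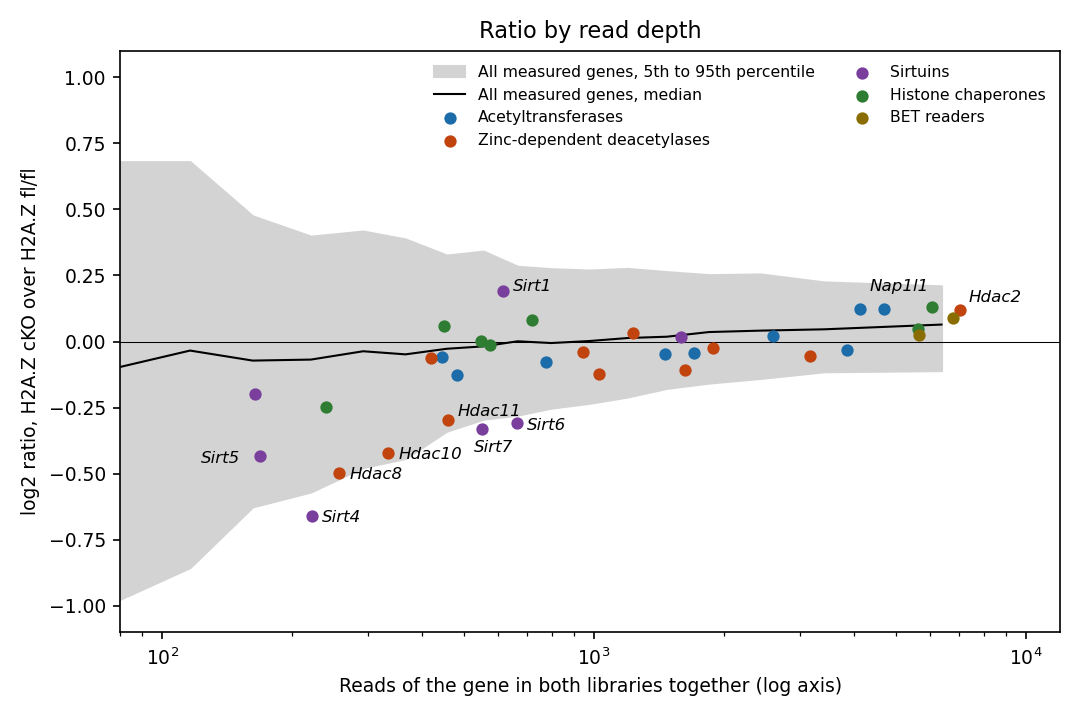
Log2 ratio of H2A.Z cKO over H2A.Z fl/fl against the reads of each gene in both libraries together (log axis), with the 36 genes as points coloured by class, and the median (line) and 5th to 95th percentile (grey band) of all measured genes in 20 bins of depth. Deep genes such as Hdac2 and Nap1l1 lie slightly above 0, Sirt4, Sirt6 and Sirt7 lie below the band, and Hdac8 and Hdac10 lie at its lower edge.

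Ratios between related genes do not depend on how the libraries are scaled. Of 11 pairs of related genes, 2 differed in balance between the libraries beyond counting error. The read ratio of Hdac3 over Hdac8 was higher in cKO by 0.47 on the log2 scale (0.08 to 0.87), and that of Kat6a over Kat6b by 0.16 (0.03 to 0.28). Per kilobase, Hdac3 exceeded Hdac8 10.4-fold in cKO and 7.52-fold in fl/fl, and Kat6a exceeded Kat6b 2.35-fold in cKO and 2.11-fold in fl/fl. The intervals of the other 9 included 0: Asf1a over Asf1b was at 0.33 (-0.11 to 0.77), Hdac6 over Hdac10 at 0.31 (-0.04 to 0.67), Hdac1 over Hdac2 at -0.16 (-0.36 to 0.04) and Crebbp over Ep300 at -0.10 (-0.24 to 0.04). For Sirt6 over Sirt7, both lower in cKO, the balance was at 0.02 (-0.32 to 0.36).

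**Figure D4:**
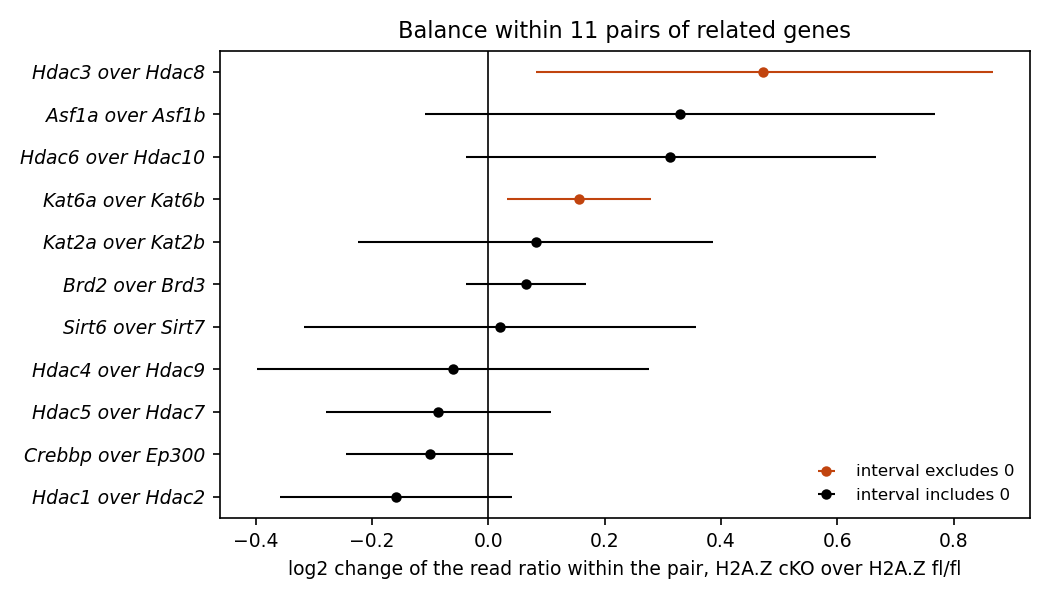
Change, in H2A.Z cKO over H2A.Z fl/fl, of the read ratio of the first over the second gene of 11 pairs, on the log2 scale, with exact conditional 95% intervals for counting error from 1 library each. The intervals of Hdac3 over Hdac8 (0.47) and Kat6a over Kat6b (0.16) exclude 0.

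The nearest measured genes on either side of the 11 genes beyond counting error were examined after those values were seen. Of these 22 neighbours, 12 had the sign of their member, 3 were also beyond counting error in that direction, and 1, Bbs10 beside Nap1l1, was beyond it in the opposite one (-0.84, -1.44 to -0.26). Among all measured genes 12.5% were higher and 9.30% lower beyond counting error. Ankrd24, which lies 743 bases from Sirt6 on chromosome 10, had 158 reads in cKO and 243 in fl/fl, a log2 ratio of -0.68 (-0.98 to -0.38), larger than that of Sirt6 itself. On the other side of Sirt6, BC025920 had 48 reads in cKO and 41 in fl/fl (0.17, -0.46 to 0.81). Next to Sirt7, Pcyt2, the gene of a phospholipid synthesis enzyme 436 bases away, was at -0.25 (-0.44 to -0.06). On the other side of Sirt7, Gm17586 was at -0.24 (-1.17 to 0.66). Mafg, which overlaps Sirt7 and is not counted among the 22, had 745 reads in cKO and 749 in fl/fl (-0.06, -0.21 to 0.08). Marcks, the nearest measured gene on one side of Hdac2 at 131486 bases, was at 0.16 (0.12 to 0.21). Around Sirt4, Msi1 and Pxn were at 0.05 (-0.03 to 0.12) and -0.14 (-0.32 to 0.04).

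The subunits that work with these enzymes were described by list. On a list of 29 subunits of class I deacetylase corepressors, the median was -0.0014, 0 were at least 1.5-fold apart, and 5 were higher (Sap30, Kdm1a, Sap130, Rcor2 and Ncor1) and 2 lower (Rbbp7 and Chd4) beyond counting error. Sap30, a Sin3 subunit, had 460 reads in cKO and 314 in fl/fl, a log2 ratio of 0.49 (0.28 to 0.71), Brms1, another Sin3-linked gene, was at -0.18 (-0.46 to 0.09) and Kdm1a, the demethylase of CoREST, at 0.16 (0.08 to 0.23). Of 21 measured SAGA and ATAC subunits, 2 were higher (Sgf29 and Usp22) and 3 lower (Taf6l, Supt20 and Trrap), with a median of 0.02. Taf6l was at -0.41 (-0.68 to -0.14), Sgf29, a reader of methylated H3, at 0.38 (0.06 to 0.71), and Supt3 at 0.20 (-0.15 to 0.56). Of 18 subunits of MYST complexes, 4 were higher (Jade3, Jade1, Meaf6 and Msl1) and 0 lower, with a median of 0.02; Jade3 and Jade1, scaffolds of HBO1, were at 0.28 (0.05 to 0.51) and 0.27 (0.07 to 0.46), and Msl3 at -0.22 (-0.48 to 0.03). The one MYST subunit at least 1.5-fold lower was Ing4, with 22 reads in cKO and 33 in fl/fl (-0.63, -1.49 to 0.18).

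Other acetyltransferases numbered 10, with 3 higher (Ncoa3, Naa60 and Clock) and 1 lower (Nat10) and a median of 0.01. Nat10, which acetylates RNA cytidines, had 464 reads in cKO and 566 in fl/fl (log2 ratio -0.34, -0.52 to -0.16), while the coactivator gene Ncoa3 and the amino-terminal acetyltransferase gene Naa60 were both at 0.23. Of 21 other genes of histone chaperones and their partners, 3 were higher (Nap1l5, Hjurp and Set) and 1 lower (Atrx), with a median of 0.03. Nap1l5, an imprinted relative of Nap1l1, had 397 reads in cKO and 274 in fl/fl (0.48, 0.25 to 0.71), the related gene Nap1l3 was at 0.23 (-0.05 to 0.51) and Hjurp at 0.21 (0.13 to 0.29).

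Of 25 other readers of acetyl-lysine, 9 were higher and 1 lower beyond counting error, and the median was 0.06. The 9 were Bptf, Atad2b, Brwd1, Baz1b, Trim24, Trim28, Trim33, Yeats4 and Mllt3, and the lower one was Zmynd8. Trim24, a bromodomain cofactor of nuclear receptors, had 1269 reads in cKO and 998 in fl/fl (log2 ratio 0.29, 0.17 to 0.41), Yeats4 was at 0.26 (0.13 to 0.40) and Atad2b at 0.19 (0.02 to 0.37). Genes that supply acetyl-CoA and NAD had a median of -0.01 over 11, with Acly and Nampt higher. Nampt, the rate-limiting enzyme of NAD salvage on which sirtuins depend, had 625 reads in cKO and 511 in fl/fl (0.23, 0.06 to 0.41). Dlat and Acss2 were at -0.15 (-0.34 to 0.04) and -0.14 (-0.43 to 0.15). Counts beyond counting error in these lists are read against 12.5% higher and 9.30% lower among all measured genes. Most genes of each list had at least 400 reads, and among all genes of that depth 18.1% were higher and 8.55% lower.

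In the authors' deposited table, 0 of the 36 genes are marked significant, against 1.61% of its 19720 genes. Every gene so marked has at least a 2-fold difference there. Of the 36, 4 have an adjusted p below 0.05 in the authors' deposited table, a level reached by 7.42% of its genes. All 4 were lower in cKO in that table: Sirt4 with an adjusted p of 0.0080, Sirt6 with 0.032, Sirt7 with 0.042 and Hdac8 with 0.044. The sources used here do not give the authors' test, and their table holds 1 count per genotype.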

How the data were processed

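Gene-level read counts per genotype were used as the authors deposited them, 1 column for the cKO and 1 for the fl/fl library. HTSeq 0.6.0, TopHat2 2.0.12, Bowtie2 2.2.3 and the build mm9 are listed in the submitters' processing notes without their roles, but 79.4% of the positions in the table equal those of GENCODE M21 on GRCm38, those of 27 of the 36 genes included, so coordinates are given as GRCm38. The authors' deposited CPM columns give 0 reads as 0.5, their deposited fold and log2 columns run fl/fl over cKO, and the sources used here do not name the test behind their deposited p-value columns.

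Counts were scaled by TMM in edgeR 4.0.16 (R 4.3.3), and log2 ratios of cKO over fl/fl were taken with a prior of 0.5 read. With 1 library per genotype no test was made. Levels are CPM divided by the union of GENCODE M21 exons, which overstates the length of genes with rare isoforms. Overlapping genes and near-identical transcripts (BLAST 2.17.0, at least 95% identity over 200 bases) were listed. Other steps used Python 3.11.15, pandas 2.3.3, scipy 1.17.1 and matplotlib 3.10.9, and the interval calculation was tested on simulated counts. The members, pairs and lists were chosen with earlier results of these data known. Named are all 36 genes, H2afz and H2afv, the 3 members furthest from 0 with at least 100 reads in each list of partners, and the genes that make up some counts of 5 or fewer, which, like the neighbours, were chosen after their values were seen. Alternatives were other scalings, priors, read minimums, fold thresholds and confidence levels. Lists of neuronal, glial, choroid plexus, meningeal, vascular, blood, immune, regional and S phase genes served as marks of tissue make-up.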

Additional observations from a re-analysis of the deposited data

How the results depend on the processing

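Of 180 ratios of the 36 genes recomputed under 5 alternative settings, 180 stayed within the gene's 95% interval: scaling by library total, by relative log expression or by the upper quartile, a prior of 5 reads, and, added after seeing the data, centring on genes of like GC content. The scalings move every ratio by the same amount, and the shifts in all 5 settings were small beside the intervals. That count had little room to come out otherwise and is no measure of robustness. Ratios near 0 turned sign for 5 genes by library total, for 2 (Chaf1a and Chaf1b) with GC centring and for 1 (Chaf1a) by relative log expression. A minimum of 100 reads or none removes no member and so moves no ratio. The number of genes higher beyond counting error was 3 when scaled by library total. At a threshold of 5 to 4 in place of 1.5-fold 5 genes were lower (13.9%, against 12.2% of measured genes and 6.47% of those with at least 100 reads), and at 2-fold 0 were. Relative to TMM, the median of all measured genes moved to -0.03 by library total and to 0.03 by relative log expression. With 99% intervals Hdac11 and Brd2 came within counting error. Leaving out 8 genes with large overlaps or near-identical copies, chosen after seeing the data, removes Nap1l1 from the higher genes by construction, and gave a median of 0.0012 for the chaperones and -0.25 for the sirtuins, against 0.05 and -0.31 with all members. No paired analysis was possible because each genotype has 1 count column, and for the same reason no replicate could be left out. Depth limits the genes with few reads: Sirt3, Sirt5, Asf1b, Kat2b, Kat8 and Hdac9 have intervals wide enough to hold both level and the ratio of Sirt6.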
